A study of Mus musculus with 2 samples.

Results

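Complex I of the mitochondrial respiratory chain was read through 43 genes, out of 18193 genes named on the arrays, in whole pancreas of young adult male mice. The members were the genes whose platform symbol is Ndufa, Ndufb, Ndufc, Ndufs, Ndufv, Ndufab or Ndufaf followed by a number. They comprised 34 subunits of complex I, 8 assembly factors, and Ndufa4, which carries an Nduf symbol but is now known as a subunit of complex IV. Each gene was read by its brightest probe set, and its other probe sets served as checks. The subunits Ndufa11 and Ndufs6 had no probe set naming that gene alone and were not analysed here, and neither were the 7 subunits encoded by mitochondrial DNA.

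The arrays compared C57BL/6J offspring of dams on a control diet with offspring of dams on a threonine-deficient diet, which the dams received only from embryonic day 12.5 to 14.5. All offspring were male, were weaned at 3 weeks, received control diet until 10 weeks of age and were not treated themselves. Each group was 1 pool of pancreatic RNA on 1 Affymetrix Mouse Genome 430 2.0 array, called the control pool and the TD pool below, and the sources used here do not say how many animals went into a pool. With no replicate in either group, every value below compares these 2 pools, no value has a standard deviation between samples, and no test was possible.

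Complex I takes electrons from NADH, passes them along iron-sulfur clusters to ubiquinone and pumps protons across the inner mitochondrial membrane. Its N module binds NADH, its Q module reduces ubiquinone, and its membrane arm, with a proximal part next to the Q module and a distal part at the far end, moves the protons. A core of catalytic subunits is shared with bacteria, accessory subunits surround it, and assembly factors bind intermediates but are not part of the finished enzyme. In acinar cells the respiratory chain supplies ATP for the synthesis and secretion of digestive enzymes, and in beta cells it couples glucose oxidation to insulin release.

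Both arrays had been scaled by the authors to a trimmed mean signal of 500.0, so a value can be read only against the other genes on that array. Signals under a floor of 264.9 were raised to it before log2 was taken, and 10758 genes lay above that floor on at least 1 array. Of the 43 members, 40 lay above it on both arrays, Ndufb1 did so on 1 array, and Ndufb4 and Ndufaf6 on neither. The log2 ratio is that of the TD pool over the control pool, and its median over all 10758 genes was 0.00. The ratio depended on signal, so each gene was also set against a local median, that of a window reaching 150 genes to either side of it in order of signal. For the 32 subunits above the floor on both arrays this local median lay between −0.08 and −0.04. The local spread is the scaled median absolute deviation of the ratios in the same window.

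The complex I genes differed little between the pools. Of the 41 members above the floor, 27 had a lower signal in the TD pool, where 49.9% of all genes did. Set against genes of like signal, 20 members lay below their local median and 20 above it, and 1, Ndufb6, was itself the local median. Of all genes, 49.6% lay below theirs. The 33 subunits above the floor had a median log2 ratio of −0.06, with 22 negative and 11 positive. Relative to their local medians the subunits had a median of 0.01. After removal of a loess trend of ratio on signal the median of the subunits was also 0.01, against −0.06 without that step.

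Differences of size were few among the members. The number at least 1.5-fold higher was 1 of 41, Ndufb1, where 7.20% of all genes were, and the number at least 1.5-fold lower was 1 of 41, Ndufv1, where 5.36% were. None of the 41 was 2-fold apart, against 1.28% of all genes in the higher and 0.874% in the lower direction. With a lower floor or none, Ndufb1 passed 2-fold. An outlier was a member over 2 local spreads from its local median. Ndufv3 was the 1 member above that range, where 2.56% of all genes were, and Ndufv1 and Ndufb11 were the 2 below it, where 5.69% were. These shares of 41 members are close to the background, so the count of outliers is not a result about the complex.

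**Figure D1:**
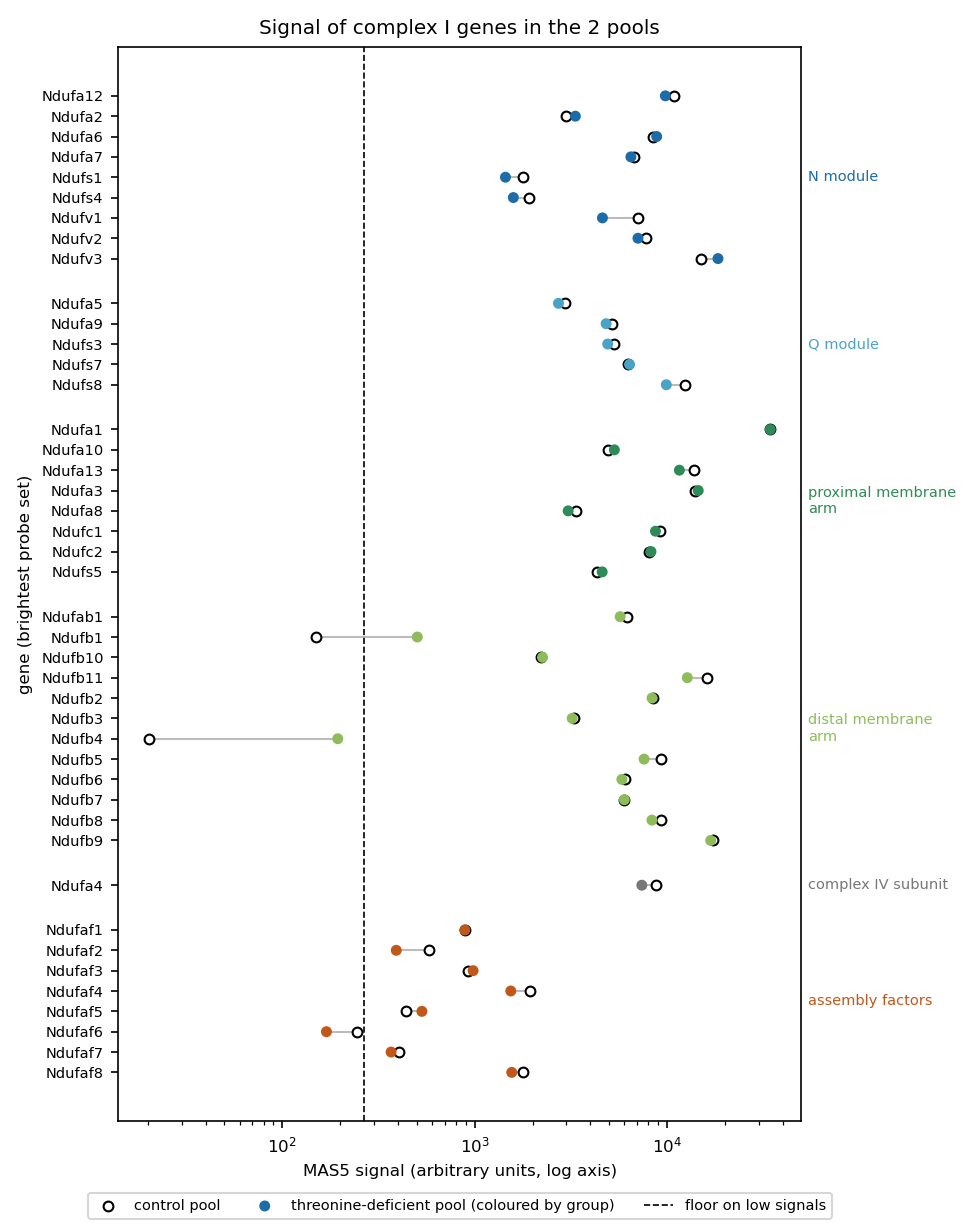
MAS5 signal (log axis) of each of the 43 genes in the control pool (open circles) and the TD pool (filled circles, coloured by group), 1 array each, with the floor of 264.9 as a dashed line. Most pairs of circles nearly touch, Ndufv1 has the widest gap of the genes above the floor on both arrays (7099 against 4616), and Ndufb4 and Ndufaf6 lie left of the floor.

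The start regions of the genes were searched for the motifs of factors known to bind promoters of respiratory genes. RefSeq promoter windows of GRCm38.p6, from 250 bases before to 50 after a start, held 39 of the 43 members in 41 windows. On either strand, the NRF1 motif GCATGCGC lay in 9.76% of the members' windows and 2.71% of all 32851 windows, and the ETS or GABP motif CCGGAAG in 14.6% and 8.86%. The YY1 motif AAGATGGCG lay in 12.2% and 1.40%, and the ERR motif TCAAGGTCA in 0 of 41 and 0.423%. Counted by gene, NRF1 was found in 10.3% of the 39 members and 5.92% of the genes above the floor that had a window. ETS or GABP was found in 15.4% of members, below the 19.5% of those genes, YY1 in 12.8% against 3.60%, and ERR in none against 0.333%. In all, 14 of the 39 members had at least 1 of the 4 motifs. The share of all genes with any of the 4 was not computed, so this count is not a result about the members.

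The 120 bases before the start, on the gene's strand, are given for 5 members. Ndufv1 and Ndufv3 are shown because their ratios lay farthest from their local medians in either direction, in units of local spread. Ndufa6 and Ndufaf4 are shown for the NRF1 motif, a subunit and an assembly factor, and Ndufs3 for the ETS or GABP motif. Capitals mark a motif, and in Ndufaf4 they span matches on both strands that overlap. The windows are chr19:4012756-4012875, minus strand, for Ndufv1; chr17:31519995-31520114, plus strand, for Ndufv3; chr15:82354292-82354411, minus strand, for Ndufa6. Those of the other 2 are chr4:24897963-24898082, plus strand, for Ndufaf4 and chr2:90904722-90904841, minus strand, for Ndufs3.
Ndufv1: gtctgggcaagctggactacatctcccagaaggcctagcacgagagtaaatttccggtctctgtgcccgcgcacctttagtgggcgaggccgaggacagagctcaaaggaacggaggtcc
Ndufv3: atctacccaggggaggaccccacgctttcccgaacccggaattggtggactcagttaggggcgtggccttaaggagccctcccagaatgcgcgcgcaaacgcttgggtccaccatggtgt
Ndufa6: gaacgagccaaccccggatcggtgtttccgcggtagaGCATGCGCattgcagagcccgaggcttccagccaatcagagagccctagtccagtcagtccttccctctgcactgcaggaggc
Ndufaf4: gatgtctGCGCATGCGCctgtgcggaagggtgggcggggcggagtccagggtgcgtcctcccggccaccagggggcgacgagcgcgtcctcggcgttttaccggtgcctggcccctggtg
Ndufs3: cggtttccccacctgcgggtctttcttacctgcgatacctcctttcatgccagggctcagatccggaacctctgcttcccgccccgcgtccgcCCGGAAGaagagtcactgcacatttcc
Neither of the farthest members, Ndufv1 and Ndufv3, had 1 of the 4 motifs in its window. The 4 members with the NRF1 motif had a median log2 ratio of −0.04 and the 34 measured members without it −0.09. For ETS or GABP these medians were −0.08 over 6 and −0.09 over 32 members, and for YY1 −0.10 over 5 and −0.06 over 33. A match is a stretch of letters and not a measured binding site.

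In the N module, which takes up NADH, 6 of 9 subunits had a lower signal in the TD pool, where 49.9% of all genes did. The median log2 ratio was −0.13, but −0.06 relative to the local medians, with 5 of 9 below theirs. Ndufv1 carries the flavin and the NADH-binding site. Its brightest probe set read 7099 units of signal in the control pool and 4616 in the TD pool. That log2 ratio of −0.62 was the lowest of the members and compared with a local median of −0.06 and a local spread of 0.16. Both other probe sets of Ndufv1 were also lower in the TD pool but by less, at 4268 against 3879, a log2 ratio of −0.14, and 3587 against 3230.1, one of −0.15. With the median over its probe sets in place of the brightest, Ndufv1 had −0.15 and was no outlier.

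Ndufv3, an accessory subunit of the same module with tissue-specific splice forms, went the other way. It read 15001 in the control and 18401 in the TD pool, a log2 ratio of 0.29 against a local median of −0.06 and a local spread of 0.13. It was read by 1 probe set, whose name ends in a sharing suffix (_s_at, _x_at or _a_at, marking possible overlap between transcripts), so no second reading is at hand. Such a suffix was carried by the brightest probe sets of 21 of the 43 members. The lowest and the highest ratio of this module thus belong to Ndufv1 and Ndufv3.

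The iron-sulfur proteins Ndufs1 and Ndufv2 had lower signals in the TD pool in their brightest probe sets. Ndufs1, the largest core subunit, read 1787 and then 1446, a log2 ratio of −0.31, at −0.97 local spreads from its local median. Ndufv2 read 7738 and 7061, or −0.13, while its other probe sets gave −0.06 and 0.63. The reading of 0.63, from 1274 to 1971, came from its dimmest probe set. Ndufs4, an accessory subunit whose loss in mice causes encephalopathy, had −0.28 in its brightest probe set, from 1923 to 1589, and −0.02 and 0.24 in the dimmer ones above the floor.

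The other N module subunits lay within 2 local spreads of their local medians. Ndufa2 had a log2 ratio of 0.16, from 2983 to 3338, and Ndufa6, which holds an acyl carrier protein to the complex, 0.06. Ndufa7 had −0.05, and its dimmer probe sets gave −0.11, −0.07, 0.19 and −0.29. Ndufa12 had −0.14, with −0.18 and −0.02 in the others above the floor. The readings of Ndufa7 thus ranged over 0.48 on the log2 scale, although its brightest probe set was close to level.

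In the Q module, where ubiquinone is reduced, 4 of 5 subunits were lower in the TD pool, where 49.9% of all genes were. The median log2 ratio was −0.10, but −0.04 relative to the local medians, and 4 of 5 lay within 1 local spread. Ndufs8, which carries iron-sulfur clusters close to the quinone site, had the lowest ratio of the module, −0.32, from 12375 to 9913. Its 5 other probe sets ranged from −0.14 to 0.35, and its median over probe sets was 0.00. Ndufs7, which holds the last cluster before ubiquinone, had 0.03 and −0.15 in its probe sets. Ndufs3 had −0.10, from 5284 to 4914, and Ndufa9, an accessory subunit that resembles short-chain dehydrogenases, −0.10, from 5160.3 to 4822. Ndufa5 had −0.12 in its brighter and 0.38 in its dimmer probe set. No member of the module lay over 2 local spreads from its local median.

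The catalytic core had 6 measured members, Ndufv1, Ndufv2, Ndufs1, Ndufs3, Ndufs7 and Ndufs8. In their brightest probe sets 5 of the 6 were lower in the TD pool, and the median log2 ratio was −0.22. The 27 accessory subunits above the floor had a median of −0.05, with 17 lower and 10 higher. Relative to the local medians these medians were −0.15 for the core and 0.02 for the accessory subunits, and 49.9% of all genes were lower. Of the 6 core genes, Ndufv1 alone had every probe set lower among those read by over 1 probe set, while Ndufv2, Ndufs7 and Ndufs8 had probe sets of both signs. Ndufs1 and Ndufs3 were read by 1 probe set each.

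**Figure D2:**
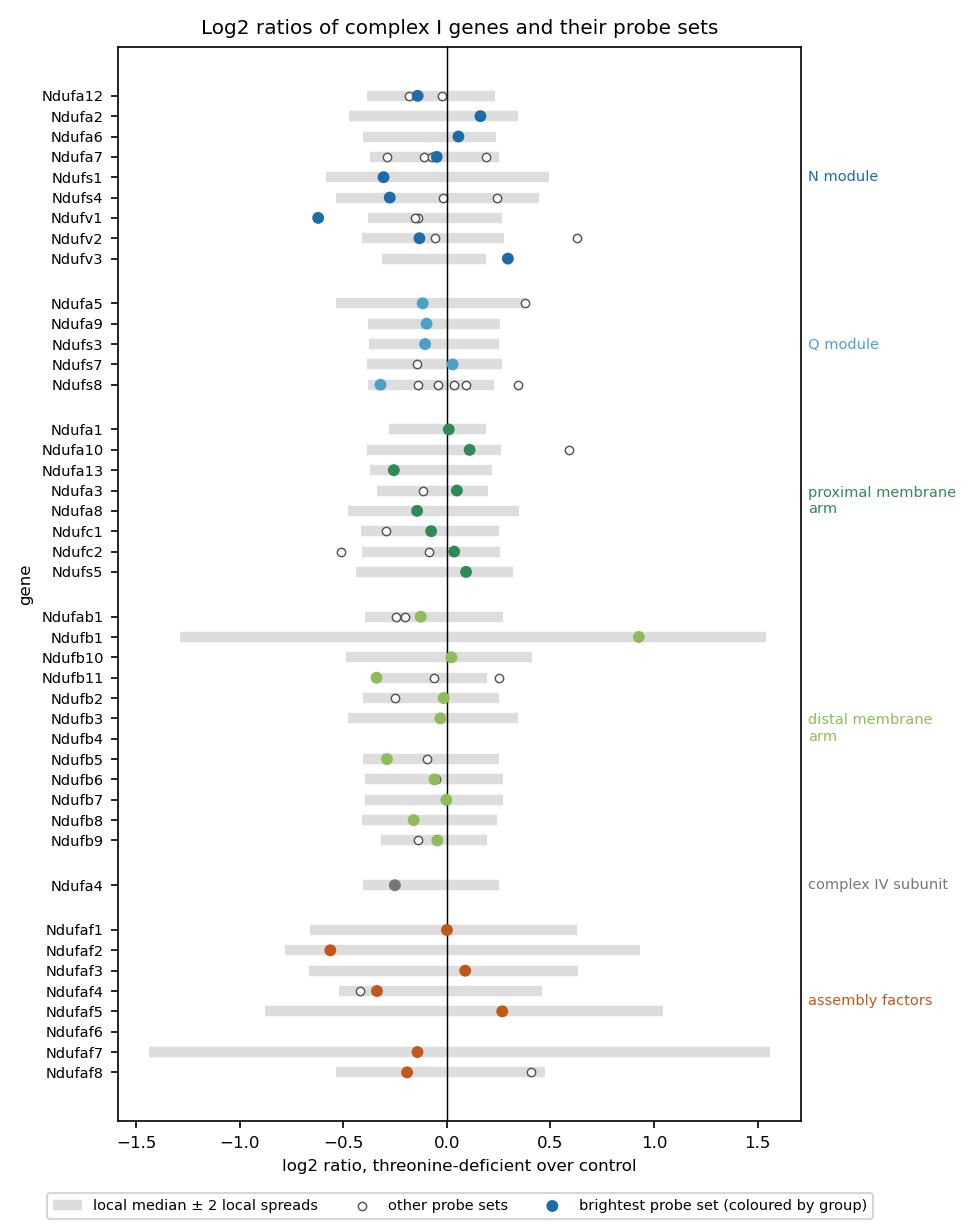
Log2 ratio of the threonine-deficient over the control pool for each gene in its brightest probe set (filled, coloured by group) and its other probe sets above the floor on at least 1 array (open), with the local median ± 2 local spreads as grey bars. Ndufv1, Ndufv3 and Ndufb11 lie outside their bars, and the open circles of Ndufv1 and Ndufb11 lie inside or to the right of them; Ndufb4 and Ndufaf6 have no point because both signals were below the floor.

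The proximal membrane arm had a median log2 ratio of 0.02. Of its 8 subunits, 3 were lower and 5 higher in the TD pool, where 49.9% of all genes were lower. Relative to the local medians the median was 0.08, with 2 of 8 below theirs. Ndufa1, a small X-linked subunit, read 34169 and 34398, a log2 ratio of 0.01. Ndufa10, which resembles nucleoside kinases, had 0.11 from 4932 to 5323, and 0.59 in a probe set close to the floor. Ndufs5, a protein of the intermembrane space side, had 0.09, Ndufa3 0.05 and Ndufc2 0.04. Ndufa13, also known as GRIM-19, had the lowest ratio of this arm, −0.26, from 13838 to 11590.1. Ndufa8 had −0.14 and Ndufc1 −0.08.

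Probe sets of the same gene differed in this arm as well. In Ndufc2 the brightest probe set went from 8049.9 to 8252 and the next from 6093 to 4283, log2 ratios of 0.04 and −0.51, with −0.08 in the dimmest above the floor. Ndufc1 had −0.29 in its dimmer probe set, and Ndufa3 had −0.12. All 8 brightest readings lay within 2 local spreads of their local medians.

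In the distal membrane arm, 9 of 11 subunits above the floor were lower in the TD pool, where 49.9% of all genes were. The median log2 ratio was −0.05, but 0.02 relative to the local medians, with 4 of 11 below theirs. Ndufb11, an X-linked subunit, had the lowest log2 ratio, −0.34, with 16124 in the control pool and 12745 in the TD pool. Its local median was −0.07 and its local spread 0.13. Its other probe sets gave 0.25, from 8633 to 10266, and −0.06, from 9292 to 8910.0. At −2.06 local spreads it lay just past the limit for an outlier, and it was inside that limit after loess centring, with the median over its probe sets and when probe sets of a sharing suffix were left out for all genes. Ndufs8, at −1.61 local spreads, was the nearest member inside the limit on that side.

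Ndufb1, a small subunit at the far end of the membrane arm, read 149.5 in the control pool, below the floor, and 504 in the TD pool. It was at least 1.90-fold higher there, in 1 probe set. Genes of like signal near the floor had a local spread of 0.71, and the bound of 0.93 on the log2 scale lay 1.13 local spreads above their median. Ndufb4 read 20.4 and 194 in the probe set that names it alone, both below the floor, so it has no ratio.

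The remaining subunits of the distal arm lay within 2 local spreads of their local medians. Ndufb5 had a log2 ratio of −0.29, from 9282 to 7597, and −0.09 in its other probe set. Ndufb8 had −0.16 and Ndufab1, the mitochondrial acyl carrier protein, −0.13, from 6225 to 5704. The next probe set of Ndufab1 gave −0.20 and a further one, below the floor in the TD pool, a bound of −0.25. Ndufb6 had −0.06 and −0.05 in its probe sets, Ndufb7 read 6008 and 5998, or 0.00, and 0.00 again in its other probe set, and Ndufb9 had −0.05 and −0.14. Ndufb3 had −0.03, Ndufb10 0.02 and Ndufb2 −0.01, with −0.25 in a dimmer probe set of Ndufb2. Ndufb6 and Ndufb7 were the genes whose readings agreed most closely, with a range over their probe sets of 0.01 or less.

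Ndufa4 read 8799 in the control and 7395 in the TD pool, a log2 ratio of −0.25, at −1.07 local spreads from its local median. Counting it as a subunit of complex I gave a median of the subunits of −0.07, against −0.06 without it.

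The assembly factors had a median log2 ratio of −0.14 over the 7 above the floor, with 4 lower and 3 higher in the TD pool. Ndufaf2 is a paralogue of the subunit Ndufa12 that holds its place late in assembly. It read 578 in the control and 391 in the TD pool, a log2 ratio of −0.56, the lowest of the group, at −1.49 local spreads from its local median. The subunit Ndufa12 had −0.14. Ndufaf4, which acts with Ndufaf3 on the early Q module, read 1947 and 1541, or −0.34, and 797 and 595 in its other probe set, or −0.42. Its partner Ndufaf3 had 0.09, from 923 to 982.

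Of the enzymes among the assembly factors, Ndufaf5, which hydroxylates Ndufs7, had the highest ratio of the group, 0.27, from 442 to 532. Ndufaf8, the partner of Ndufaf5, had −0.19 in its brightest probe set, from 1780.4 to 1559, and 0.40 in the other, from 593 to 785. Ndufaf7, a methyltransferase, had −0.14, from 406 to 368. Ndufaf1, which works in the membrane arm assembly complex, read 889 in both pools. Ndufaf6 was below the floor on both arrays, at 243 and 169.7. None of the 7 lay over 2 local spreads from its local median, but Ndufaf2 did so with the floor at the 75th percentile (−2.07) and with the median over probe sets (−2.42). With the floor at the 50th percentile Ndufaf6 was measured and lay at −2.34 local spreads.

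Subunits and assembly factors did not separate. The ratios of the assembly factors, from −0.56 to 0.27, lie inside the range of the subunits, from −0.62 to 0.93. The end at 0.93 is the bound of Ndufb1, and the next highest subunit was Ndufv3 at 0.29. The end at −0.62 is the brightest probe set of Ndufv1, whose others gave −0.14 and −0.15. Only 1 subunit, Ndufs1, lay within the signal range of the assembly factors, so the groups were hardly compared at like signal. The medians of subunits and assembly factors, −0.06 and −0.14, differ by 0.08 on the log2 scale. Relative to the local medians the difference was 0.17, with 0.01 for the subunits and −0.16 for the assembly factors. The sign of the difference turned with the choice of probe set, to −0.05 with the median over probe sets and to −0.11 without probe sets of a sharing suffix, and the median of the assembly factors was then 0.00. Genes of like signal varied more in the case of the assembly factors, whose local spreads ran from 0.24 to 0.75 with a median of 0.32, against a median of 0.16 for the subunits.

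**Figure D3:**
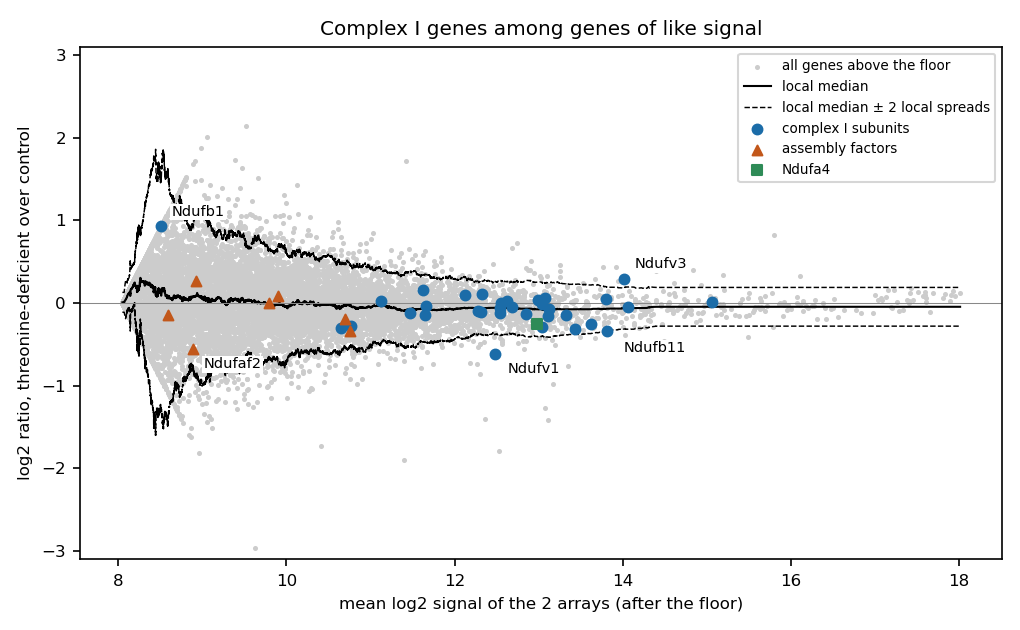
Log2 ratio against mean log2 signal for the 10758 genes above the floor (grey), with the local median (line) and 2 local spreads on either side (dashed), the 33 subunits as blue circles, the 7 assembly factors as orange triangles and Ndufa4 as a green square. Apart from Ndufb1, which lies at 0.93 where the line is at 0.13, the subunits scatter about the line, which is slightly below 0 at their signals, and Ndufv1, Ndufv3 and Ndufb11 lie past the dashed lines.

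Repeat readings by other probe sets give a partial view of the precision of these ratios. Of the members, 21 had over 1 probe set above the floor on both arrays. In 11 of them all such probe sets had the same sign, 10 lower and 1 higher in the TD pool, and in the other 10 the signs were mixed. The gene with every probe set higher was Ndufa10. The brightest and next probe sets gave an error per probe set of 0.23 as a standard deviation on the log2 scale. Since they share the same 2 arrays, it covers differences between probe sets only, and no variation between arrays or animals. Of the assembly factors, only Ndufaf4 and Ndufaf8 entered this error. Of the 41 members, 28 had a ratio smaller in size than this error, 24 of the 33 subunits and 4 of the 7 assembly factors among them. The range over the probe sets of a gene had a median of 0.24 and reached 0.76 in Ndufv2.

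Assembly factors that do not carry an Nduf symbol were read for comparison. Of 10 above the floor, 5 were lower and 5 higher in the TD pool, with a median log2 ratio of −0.11. Acad9, an acyl-CoA dehydrogenase relative that serves in membrane arm assembly, had the lowest, −0.94, from 828 to 431, but 0.50 in its other probe set above the floor, from 402 to 569.8. Ecsit, its partner in the same assembly complex, had the highest, 0.79, from 748 to 1295, in 1 probe set. Ndufaf1, which also works in that assembly complex, was level.

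The other respiratory complexes gave the following medians over genes above the floor, beside counts of genes lower in the TD pool, where 49.9% of all genes were lower. Complex II, succinate dehydrogenase and its assembly factors, had 0.07 over 8 genes with 3 lower, led by Sdhaf2 at 0.54 with 0.03 in its other probe set. Complex III had −0.03 over 9 with 5 lower, and Uqcr10 had −0.36 with −0.09 and −0.44 in its others. Complex IV had −0.12 over 8 with 7 lower, and Cox8a had −0.50 with −0.15 in its other above the floor. Complex V, the ATP synthase, had −0.20 over 15 genes with 13 lower. Its member Atp5k had −0.76, and −0.35 and −0.17 elsewhere, and Atp5h had 0.43, with −0.15 in its other. The regulators of mitochondrial gene expression had −0.02 over 11 genes, with 6 lower, and Esrra, an orphan nuclear receptor, had −0.78 with a bound of 0.21 in its other probe set, while Pprc1, a coactivator, had 0.54. The median of the complex I subunits, −0.06, lay inside the range of these lists. Relative to the local medians, the medians were 0.11 for complex II, 0.05 for complex III, −0.06 for complex IV and −0.14 for complex V. They were −0.01 for the regulators and 0.01 for the complex I subunits.

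**Figure D4:**
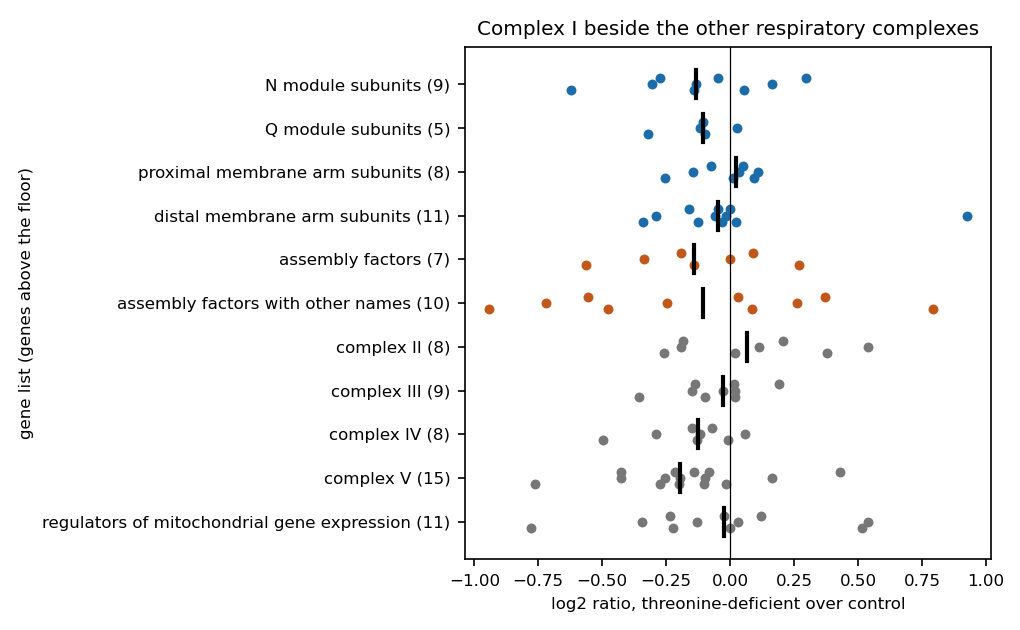
Log2 ratio of the threonine-deficient over the control pool for every gene above the floor in each list (points, with the number of genes in brackets) and the list median (black bar). The bars of the complex I modules lie from −0.13 to 0.02, and those of complexes II to V from 0.07 to −0.20.

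Markers of several cell types differed in signal between the 2 pools. In bulk tissue, fewer cells of a type and less RNA per cell cannot be told apart. Of all genes above the floor, 49.9% were lower in the TD pool. Acinar markers were higher in the TD pool in 8 of 9 genes, with a summed signal of 1413949 in the control and 1514431 in the TD pool. Islet markers were lower in 8 of 8, with sums of 176077 and 144353, though Ppy was close to level at −0.02. White adipocyte markers were lower in 5 of 5 above the floor, with sums of 31224 and 13880.1, Lep being below the floor. Pcsk1n of the islet list and Cidec of the white adipocyte list were below the floor in the TD pool. Their log2 ratios of −0.48 and −1.19 are therefore bounds. Endothelial markers were higher in 5 of 5, with sums of 1758 and 2613, but were dim and close to genes of like signal. Kdr was below the floor in the control pool, so its log2 ratio of 0.36 is a bound. Cdh5, at 0.25, lay −0.01 local spreads from its local median, and Pecam1, the farthest, lay at 1.38. Of the brown adipocyte list, Cidea, Cox7a1 and Elovl3 were below the floor, Ucp1 was at the floor in the control and Dio2 in the TD pool. Of the striated muscle list, 4 of 5 were below the floor. The 4 fibroblast markers above the floor had a median of −0.02, the 4 leukocyte markers 0.00 with a range from −0.79 for Jchain to 0.67 for Adgre1, and the 2 duct markers 0.60. The part of these differences in the ratios of the complex I genes was not tested.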

How the data were processed

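Pooled pancreatic RNA was hybridised to 1 array per group, and the deposited values are MAS5 signal intensities on a linear scale, per the submitters' processing notes; the MAS5 version and a genome build are not given in the sources used here. Of 45101 probe sets, 64 were controls, 34945 named 1 gene, 932 several and 9160 none. Genes were named from probe sets with 1 symbol, updated through gene identifiers with RefSeq (GRCm38.p6), which matched all 43 members.

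Each gene took its brightest probe set by mean log2 signal. Signals were raised to a floor at the higher of the 60th percentiles of both arrays. A floored gene gives a bound, and near the floor the local spread is itself limited by it. Local medians and spreads used windows of 150 genes to either side in mean log2 signal (median absolute deviation times 1.4826). All members were named, with signals and probe sets for outliers and extremes; of related lists, up to 2 genes with the largest ratios were named. Members and lists were chosen with earlier results of these data known. No replicate exists, so no test was run, and the number of arrays limits the precision. The planned protein comparison was not made. The scripts were tested on simulated data before use. Python 3.11.15, pandas 2.3.3 and statsmodels 0.14.6 were used.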

Additional observations from a re-analysis of the deposited data

How the results depend on the processing

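Counts and medians were recomputed without a floor, with it moved to percentile 50 or 75, with a pseudocount in its place, after centring each array, after removing a loess trend, with medians over probe sets, and leaving out sharing suffixes. The number of members lower in the TD pool stayed within 1.5 times of 27 of 41 under all 8. It was 20 of 29 without sharing suffixes, 28 of 43 with the lower floor and 22 of 41 after loess, where 16 of 33 subunits were lower instead of 22. The median of the subunits was 0.0078 after loess and −0.10 without sharing suffixes. That of the assembly factors was 0.00061 both with medians over probe sets and without sharing suffixes, and the difference between the groups was then −0.046 and −0.11. With no floor or the lower floor 1 member was 2-fold apart. With the higher floor or the median over probe sets 1 member was 1.5-fold apart instead of 2. With a limit of 3 local spreads 1 member, Ndufv1, was an outlier instead of 3. Ndufv1 and Ndufv3 were each outliers in 7 of 8 alternatives, the last being one without a probe set for Ndufv3, and Ndufb11 in 5. Ndufb1 was an outlier in 3, Ndufaf2 in 2, and Ndufa5, Ndufc2 and Ndufaf6 in 1 each, and the number of outliers was 4 with no floor, either moved floor or the pseudocount and 2 after loess. Of the 41 members, 30 kept their ratio within 1 local spread under every alternative in which they were measured. The causes were not tested, and no array could be left out. No paired analysis was possible because each group held 1 pool.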

Other observations

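Ndufa4l2, a paralogue of Ndufa4 known for its induction under low oxygen, lies outside the symbol rule and was chosen after its values were seen. It read 47.1 in the control pool, below the floor, and 325 in the TD pool, at least 1.23-fold higher. Ndufa4 itself had a log2 ratio of −0.25.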
